A study of Rattus norvegicus with 24 samples.

Results

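The response of the male rat mammary gland to a middle dose of estradiol was measured on 6 arrays, 3 from male Sprague-Dawley rats given 1 µg/kg/day of 17β-estradiol and 3 from males given 0. They were chosen by the sex and dose in the sample labels, out of 24 arrays in which each sex and dose (0, 0.1, 1 and 10 µg/kg/day) has 3. Per the labels' protocols each animal, those at 0 included, wore a subcutaneous osmotic pump between postnatal days 21 and 33, and its pair of abdominal glands was then frozen. Total RNA was hybridised to Affymetrix arrays. Whether the arrays of a group come from different animals is not stated. The p-values therefore reflect the scatter of arrays within groups, pooled over all 24 arrays, some of it possibly technical.

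Estradiol acts through estrogen receptors, transcription factors that bind DNA at estrogen response elements or through other factors. In the pubertal rodent gland, receptor-bearing luminal cells answer it by releasing amphiregulin, a ligand of the epidermal growth factor (EGF) receptor, which acts on the surrounding stroma and drives growth of the ducts into a pad of fat. Progesterone receptor is a classic target of estradiol in these cells, and progesterone and prolactin later drive side branching and milk secretion.

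Values are deposited log values, taken as log2. They were taken as centred for each probe set within each sex, which was checked in the male arrays only. A value of 0 is thus near the middle of the male arrays, and no absolute level is kept. The presence of a cell type's markers and the sex labels therefore could not be checked, and only differences between arrays are described. Markers of liver, muscle and lymphoid tissue varied among the male arrays. Averaged over 26 hepatocyte markers, the value was 0.94, -0.07 and 0.16 in the arrays at 1 and -0.13, 1.24 and 2.30 in those at 0, so 2 of the 3 controls were the highest of the 6. Skeletal muscle markers averaged 0.77, 0.77 and -0.56 at 1, and 1.5, -0.08 and -0.38 at 0. T cell markers averaged -0.16, -1.08 and -0.17 at 1, and -1.66, 0.28 and -1.18 at 0. Replicate 1 at 0 had the widest spread over probe sets of the 6 arrays, an SD of 0.395 against 0.190 to 0.281 in the others. The beta-actin 3′ minus 5′ difference, a measure of RNA quality, was -0.24, -0.36 and -0.15 at 1 and -0.56, -0.06 and -0.28 at 0.

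Against 0, the arrays at 1 µg/kg/day showed both rises and falls. Of 31042 probe sets tested in limma with Benjamini-Hochberg adjustment at 0.05, 475 (1.53%) were higher and 652 (2.1%) lower, 1127 in all (3.63%), which name 312 and 466 genes. At least a 2-fold change was seen in 156 of the higher and 46 of the lower probe sets. Before adjustment, 5735 probe sets (18.5%) had p under 0.05, and 302 (0.973%) also a 2-fold change. The arrays of both groups did not overlap in 1124 of the 1127 called probe sets and in 26.2% of all probe sets. The count of 1127 rested on single arrays: leaving out control replicate 1 gave 165 and control replicate 2 gave 454, while leaving out treated replicates 7, 8 and 9 gave 313, 554 and 196. Leaving out control replicate 3, the array with the highest hepatocyte mean, gave 1205 and turned the balance to 696 higher and 509 lower. Without both controls whose hepatocyte mean was over 1, replicate 1 is the only male control left, so no count is given. With the mean of the luminal markers as a covariate, which itself differed between the groups, 22 probe sets passed.

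Areg, which encodes amphiregulin, had values of 0.69, 0.71 and 1.19 in the arrays at 1, against -2.88, -2.10 and -1.99 at 0. The groups lay about 3 log2 units apart, and the nearest arrays of the groups were far from each other compared with the spread within either group. The difference was 3.18 ± 0.44 (SE), a 9.09-fold rise (95% confidence interval 4.78 to 17.3, adjusted p = 0.00117). Egr2, a zinc finger transcription factor of the early growth response family, was at 0.66, 0.31 and 0.49 at 1 and at -1.53, -1.52 and -1.04 at 0, without overlap. It rose by 1.85 ± 0.22 (3.61-fold, adjusted p = 0.000163) in 1 of its 2 probe sets, and the other had the same sign. Pcdh10, a protocadherin of cell adhesion, was at 1.64, 1.46 and 1.58 at 1, a narrow range, and at -1.07, -0.43 and 0.13 at 0. It rose by 2.02 ± 0.24 (4.04-fold, adjusted p = 0.000167). Of the 80 genes chosen by the naming rule that passed at 1 against 0, 6 passed in all 23 other settings, among them each array left out in turn and the luminal covariate. These were Areg, Egr2 and Pcdh10 and, described further on, Serpinb9, Spon1 and 6330403K07Rikl. The settings include the fits without arrays of high hepatocyte mean, which leave 1 male control. Over those settings the differences ranged from 1.84 to 3.83 for Areg, from 1.38 to 2.02 for Egr2 and from 1.71 to 2.63 for Pcdh10.

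The promoters of Areg, Egr2 and Pcdh10 are shown because these had the largest rises of the 6 genes. Each is 300 bases of RefSeq sequence on build GRCr8, from 250 bases before to 50 after the annotated start, 5′ to 3′ on the gene's strand. Capitals mark a cAMP response element (TGACGTCA) in Areg and the core of an estrogen response element in Egr2, which reads GGTCA on the opposite strand. The Pcdh10 window holds neither.
Areg, chr14:17265592-17265891, minus strand: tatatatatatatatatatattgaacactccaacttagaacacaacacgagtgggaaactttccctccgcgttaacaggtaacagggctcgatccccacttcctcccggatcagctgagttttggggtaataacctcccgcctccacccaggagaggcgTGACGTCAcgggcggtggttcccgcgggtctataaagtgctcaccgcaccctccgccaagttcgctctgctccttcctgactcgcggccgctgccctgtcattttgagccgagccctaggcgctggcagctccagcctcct
Egr2, chr20:21054392-21054691, minus strand: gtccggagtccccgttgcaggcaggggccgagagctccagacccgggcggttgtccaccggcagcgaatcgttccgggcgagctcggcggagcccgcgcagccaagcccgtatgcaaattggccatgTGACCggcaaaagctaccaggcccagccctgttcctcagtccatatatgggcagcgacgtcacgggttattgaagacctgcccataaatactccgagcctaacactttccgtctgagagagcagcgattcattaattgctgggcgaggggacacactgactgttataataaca
Pcdh10, chr2:130553188-130553487, plus strand: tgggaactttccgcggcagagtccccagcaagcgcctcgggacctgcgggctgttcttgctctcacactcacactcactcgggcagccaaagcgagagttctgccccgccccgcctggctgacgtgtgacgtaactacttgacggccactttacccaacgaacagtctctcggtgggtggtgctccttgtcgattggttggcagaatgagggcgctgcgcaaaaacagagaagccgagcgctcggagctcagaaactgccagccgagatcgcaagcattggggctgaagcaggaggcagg
Both strands were searched for 5 motifs in all 33469 rat promoters of the table. The full estrogen response element, GGTCA and TGACC with any 3 bases between, was in 0.0269% of them, its core GGTCA in 40.5%, TGACGTCA in 1.83%, the AP-1 motif TGANTCA in 7.33% and the SP1 motif GGGCGG in 33.1%. Of the 15 genes with the largest rises 14 had a promoter in the table. The full element was in 0 of these, GGTCA in 3, TGACGTCA in 1, TGANTCA in 0 and GGGCGG in 8. Of the 15 with the largest falls 8 had a promoter, with the full element in 0, GGTCA in 3, TGACGTCA in 0, TGANTCA in 0 and GGGCGG in 7. The 5 letters of GGTCA also lie within the full element. A match describes the letters of the window and no binding.

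Among EGF family ligands and receptors, 4 of the 15 measured rose and 1 fell, while 10 did not pass. Over all 14217 genes, with 1 probe set each, 1.83% rose and 2.69% fell (4.52% in all, median difference -0.013), and the median of the family was 0.11. Beside Areg these were Egfr, the receptor of amphiregulin, at 0.51, 0.13 and 0.19 at 1 against -0.49, -0.46 and -0.36 at 0 (0.71 ± 0.14, adjusted p = 0.0129). Tgfa, transforming growth factor alpha and another ligand of that receptor, was at 0.87 ± 0.23 (adjusted p = 0.0443), and Erbb2, a receptor that pairs with it, at 0.77 ± 0.21 (adjusted p = 0.046). The neuregulin gene Nrg4, a ligand of ErbB4 made by fat cells, fell by 0.75 ± 0.13 (adjusted p = 0.00556). Egfr had 2 of 3 probe sets of this sign. The number of family members that rose was 1 without control replicate 1 or treated replicate 7, and 2 without control replicate 2 or treated replicate 8 or 9. Egfr lost its call without replicate 1 at 0 or replicate 7 at 1, whereas Nrg4 kept it whichever array was left out.

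**Figure D1:**
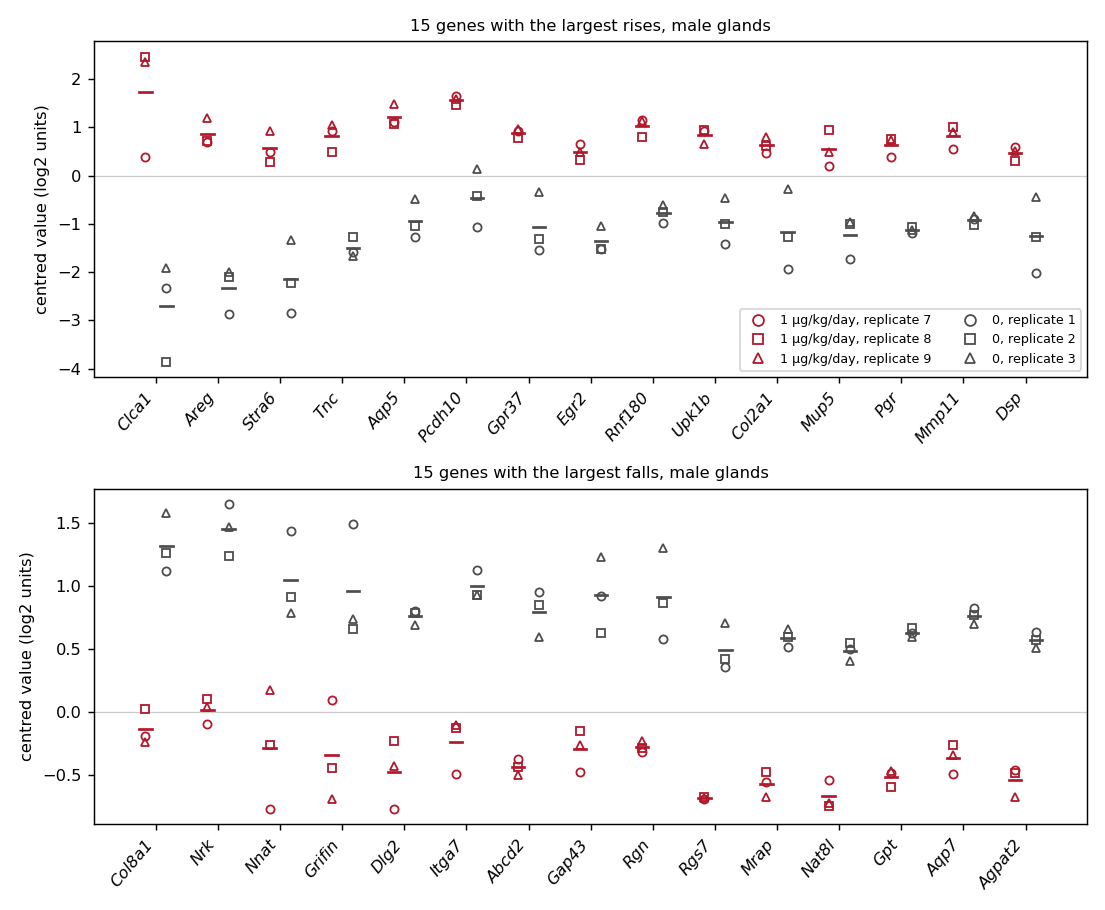
Centred values (log2 units, vertical axis) of the 15 genes with the largest rises (top) and the 15 with the largest falls (bottom) among called genes whose arrays do not overlap, in males at 1 µg/kg/day (red, left) and at 0 (grey, right). Each symbol is 1 array and each bar the mean of 3. Areg lies between 0.69 and 1.19 at 1 and between -2.88 and -1.99 at 0.

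The progesterone receptor gene Pgr was at 0.38, 0.75 and 0.74 in the arrays at 1, against -1.18, -1.08 and -1.13 at 0. The 3 controls lay close together, and the arrays at 1 were all above them. Pgr rose by 1.75 ± 0.32 (3.36-fold, adjusted p = 0.00772). Prlr, the prolactin receptor, was at 0.65, 0.53 and 0.58 at 1 and at -1.39, -1.13 and -0.38 at 0, so the arrays at 1 were close together and the controls spread. It rose by 1.56 ± 0.26 (adjusted p = 0.00475), with the same sign in all 3 of its probe sets. Of the 17 hormone receptors 2 rose (Pgr and Prlr) and 2 fell, against 1.83% and 2.69% of all genes. The falls were those of Oxtr, the oxytocin receptor of myoepithelial cells, at -0.98 ± 0.22 (adjusted p = 0.0217), and Rarb, a retinoic acid receptor, at -0.46 ± 0.12 (adjusted p = 0.0478). Rarb lost its call whichever array was left out, and Oxtr without replicate 1 or 3 at 0 or replicate 7 or 9 at 1. Pgr and Prlr kept their call whichever array was left out. Esr1, which encodes estrogen receptor alpha, did not pass, at 0.03, -0.03 and -0.13 at 1 against 0.98, 0.19 and 0.22 at 0 (-0.51 ± 0.18, adjusted p = 0.116).

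Of 27 known estrogen targets measured, 2 rose (Areg and Pgr), 1 fell and 24 did not pass, against 1.83% higher and 2.69% lower over all genes, and the median was 0.11. Of the 27 differences 15 were above 0 and 12 below. Greb1, a coactivator of the estrogen receptor and a standard marker of its activity, was at 0.32, 0.62 and 0.65 at 1 and at -1.07, -0.41 and -0.70 at 0. The arrays did not overlap, but the difference of 1.26 ± 0.37 did not pass (adjusted p = 0.063). Myb, a transcription factor gene, gave 1.20 ± 0.41 (adjusted p = 0.114) and Ccnd1, cyclin D1, 0.64 ± 0.19 (adjusted p = 0.061). Rasd1, a Ras-related protein gene induced by steroid hormones, fell by 0.94 ± 0.20 (adjusted p = 0.0165).

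Of 26 paracrine signals of duct growth, 3 rose, 2 fell and 21 did not pass, with a median of 0.01. Over all genes 1.83% rose and 2.69% fell. Wnt4, the Wnt ligand that relays the progesterone signal between epithelial cells, was at 0.38, 0.35 and 0.59 at 1 against -1.25, -1.10 and -0.20 at 0 (1.29 ± 0.22, adjusted p = 0.00507). Fgfr2, the epithelial receptor of stromal fibroblast growth factors, rose by 0.91 ± 0.21 (adjusted p = 0.0223). Its stromal ligand Fgf7 fell by 0.72 ± 0.17 (adjusted p = 0.0271), at -0.24, -0.03 and 0.05 at 1 against 0.83, 0.51 and 0.61 at 0. Igfbp2, a carrier of insulin-like growth factors, rose by 1.30 ± 0.34 (adjusted p = 0.0405), and Fgfr1 fell by 0.43 ± 0.11 (adjusted p = 0.0452). Of 26 Wnt genes, Wnt4 rose and the receptor gene Fzd4 fell by 0.77 ± 0.19 (adjusted p = 0.0309).

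Clca1, a secreted regulator of chloride channels, had the largest rise of a named gene at 4.43 ± 0.95 (adjusted p = 0.0164). Its arrays were scattered, at 0.38, 2.46 and 2.35 at 1 and at -2.34, -3.86 and -1.92 at 0, and it passed in 15 of 23 other settings. Stra6, the receptor that takes up retinol from its plasma carrier, was at 0.48, 0.28 and 0.93 at 1 against -2.85, -2.23 and -1.34 at 0 (2.70 ± 0.47, adjusted p = 0.00552). Of its 5 probe sets 4 had this sign and 3 passed. Tnc, the gene of the extracellular matrix glycoprotein tenascin-C, rose by 2.32 ± 0.38 (adjusted p = 0.00458), with arrays at 0.91, 0.49 and 1.04 at 1 and -1.58, -1.28 and -1.67 at 0. Aqp5, a water channel of secretory epithelia, was at 1.10, 1.07 and 1.48 at 1 against -1.27, -1.05 and -0.48 at 0 (2.15 ± 0.30, adjusted p = 0.00117). Gpr37, an orphan G protein-coupled receptor, rose by 1.95 ± 0.25 (adjusted p = 0.000642). All of these except Clca1 kept their call whichever array was left out.

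Smaller rises were those of Rnf180, a ubiquitin ligase (1.81 ± 0.37), Upk1b, a membrane protein of the urinary epithelium (1.81 ± 0.34), and Col2a1, type II collagen (1.78 ± 0.28). Mmp11, stromelysin-3 of the stroma, rose by 1.74 ± 0.36 and the desmosomal protein gene Dsp by 1.72 ± 0.40. Dsp did so in 1 of 2 probe sets, the other being of opposite sign. Mup5, a major urinary protein gene, rose by 1.77 ± 0.39 (adjusted p = 0.0196), but this family has near-identical members that may share probes. Of these rises only that of Col2a1 kept its call whichever array was left out. Of 23 matrix proteases and inhibitors 2 rose (Mmp11 and the stromelysin gene Mmp3 at 1.47 ± 0.38) and 2 fell, against 1.83% and 2.69% of all genes. The falls were those of Plaur, the urokinase receptor, at -0.54 ± 0.12 and Adamts5, an aggrecanase, at -0.66 ± 0.17. Of 27 collagen and matrix genes Tnc rose and Col15a1, a basement membrane collagen, fell by 0.80 ± 0.16. A pair of probe sets without a gene name ranked first by p-value in the comparison. Probe set 1392295_a_at differed by 3.74 ± 0.35 and 1376806_at by 2.98 ± 0.29 (adjusted p = 4.37e-05 for both). They were picked out after their values were seen.

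Markers of luminal and basal epithelium were higher at 1. Among 22 luminal markers there were 11 rises and 0 falls, against 1.83% and 2.69% of all genes, with 11 short of the threshold. All 22 differences were above 0, and the median was 1.06. In bulk RNA a change in the number of cells of a type and a change in RNA per cell cannot be told apart. Epcam, an epithelial adhesion molecule, was at 0.43, 0.49 and 0.77 at 1 and at -1.35, -1.05 and 0.01 at 0 (1.36 ± 0.32, adjusted p = 0.0263). The keratin gene Krt18 was at 0.46, 0.47 and 0.75 at 1 and at -1.33, -0.94 and 0.01 at 0 (1.31 ± 0.30, adjusted p = 0.0235). In both, replicate 3 at 0 was the control closest to the arrays at 1. The keratin gene Krt7 (1.28 ± 0.25) and Spint1, an epithelial protease inhibitor (1.15 ± 0.27), also rose. The luminal transcription factor gene Gata3 rose by 1.04 ± 0.27 (adjusted p = 0.0398), while Elf5 of alveolar cells gave 1.11 ± 0.46 (adjusted p = 0.194) and Ehf 0.08 ± 0.22 (adjusted p = 0.903).

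The luminal mean was 0.29, 0.37 and 0.58 at 1 and -1.02, -0.65 and -0.004 at 0, so the groups did not overlap and the controls were the more spread. Without replicate 1 at 0 the number of luminal markers that rose was 1, without replicate 2 at 0 it was 0, and without replicate 3 at 0 it was 15. It was 1 without replicate 7 or 8 at 1 and 0 without replicate 9. Over these 6 fits the median stayed between 0.75 and 1.41. Fitted on the 6 arrays of this comparison alone, without the scatter of the other groups, 1 luminal marker rose. Without the arrays whose hepatocyte mean was over 1, replicate 1 is the only male control left, and the median was 1.64. Without those over 0.5, which also leaves out treated replicate 7, the median was 1.67. These fits assume that the single control varies like the other groups, so no count is given. Of 17 basal markers 6 rose, 1 fell (Oxtr) and 10 did not pass, with a median of 0.68. Over all genes 1.83% rose and 2.69% fell. Tp63, the transcription factor p63 of basal cells, rose by 1.6 ± 0.36 in 1 of 2 probe sets, the other being of opposite sign. The contractile genes Cnn1 (1.26 ± 0.27) and Actg2 (1.04 ± 0.24) rose, as did the basal keratin Krt5 (1.5 ± 0.40). The number of basal markers that rose was 0 to 11 when single arrays were left out, 0 without replicate 1 or 2 at 0 or replicate 9 at 1, 1 without replicate 7 or 8 at 1, and 11 without replicate 3 at 0. It was 2 in the fit on the 6 arrays of this comparison alone.

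**Figure D2:**
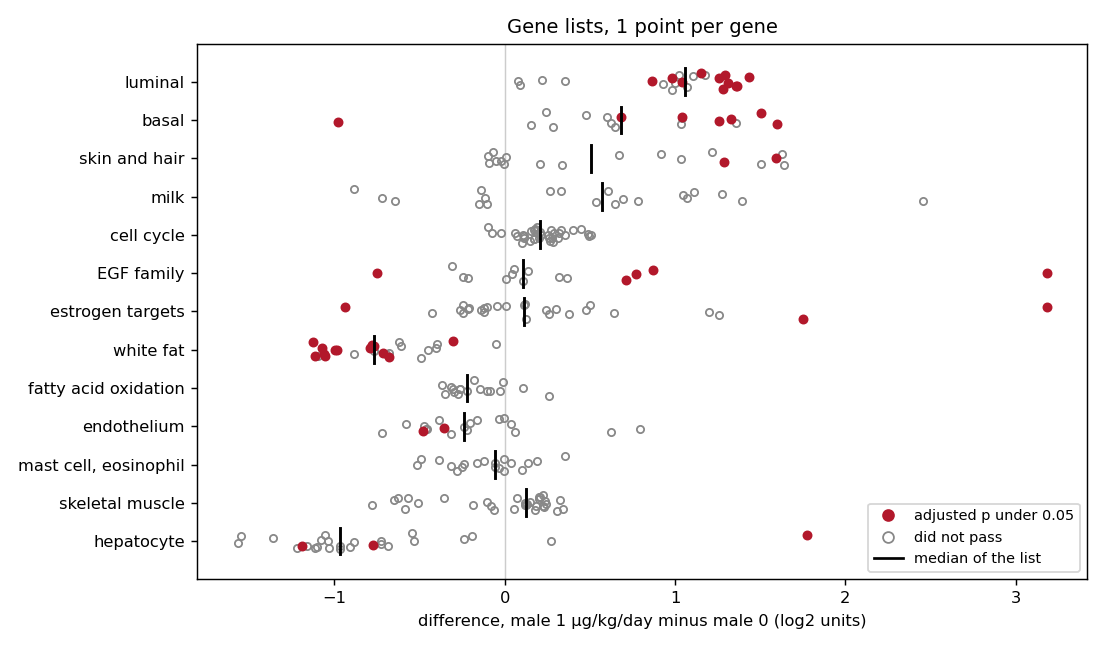
Difference between males at 1 µg/kg/day and males at 0 (log2 units, horizontal axis) for 13 gene lists, 1 point per gene. Filled points have an adjusted p under 0.05, open points did not pass, and the bar is the median of the list. The luminal median is 1.06 and the white fat median -0.77.

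Skin and hair markers, which a gland sample can carry with overlying tissue, numbered 18, of which 2 rose and 0 fell, and their median was 0.51. Of the 18 differences 12 were above 0 and 6 below, and over all genes 1.83% rose. Lgals7, galectin-7 of stratified epithelia (1.59 ± 0.33), and Sfn, the 14-3-3 protein stratifin (1.29 ± 0.29), rose, and basal epithelial cells of the gland also express several of these genes. The list mean was 0.67, 0.18 and -0.10 at 1 and -0.43, -0.49 and -0.28 at 0. With this mean as a covariate the number of called probe sets was 268 and 1 luminal marker rose. Of 20 milk genes 0 passed, 13 differences were above 0 and 7 below, and the median was 0.57. The beta-casein gene Csn2 was at 0.75, 0.89 and 1.23 at 1 against -2.99, -0.11 and -1.41 at 0 (2.46 ± 0.77, adjusted p = 0.0794), and the kappa-casein gene Csn3 gave 1.39 ± 0.40 (adjusted p = 0.0613). The arrays of both genes did not overlap, and the controls of Csn2 spanned almost 3 units. Of 36 cell cycle genes 0 passed, with a median of 0.20 and 33 differences above 0. The proliferation marker Mki67 gave 0.36 ± 0.22 (adjusted p = 0.421), and the replication licensing gene Mcm7 0.49 ± 0.15 (adjusted p = 0.0788).

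Genes of white fat cells were lower at 1. Of 25 measured, 13 fell, 0 rose and 12 did not pass, all 25 differences were below 0, and the median was -0.77. Over all genes 2.69% fell and 1.83% rose. The list mean was -0.26, -0.24 and -0.37 at 1 and 0.50, 0.44 and 0.43 at 0, with little spread in either group. Pparg, the master transcription factor of fat cells, was at -0.44, -0.27 and -0.50 at 1 against 0.56, 0.88 and 0.55 at 0 (-1.06 ± 0.18, adjusted p = 0.00513). Aqp7, the glycerol channel, was at -0.49, -0.26 and -0.34 at 1 against 0.83, 0.77 and 0.70 at 0 (-1.13 ± 0.19, adjusted p = 0.00513). In both genes the groups were wide apart and each group was narrow. Agpat2 (-1.11 ± 0.24), Gpd1 (-1.07 ± 0.21) and Dgat1 (-0.68 ± 0.12), enzymes of triglyceride synthesis, fell, as did the leptin gene Lep (-1.06 ± 0.24) and the beta-3 adrenergic receptor gene Adrb3 (-1.0 ± 0.20). Adipoq, which encodes adiponectin, gave -0.40 ± 0.13 (adjusted p = 0.0865).

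The number of white fat genes that fell was 3 or 8 when control replicate 1 or 2 was left out, and 5 when treated replicate 7 or 9 was. It was 0 with the luminal mean as a covariate, where the median was -0.61. Without the arrays whose hepatocyte mean was over 1, which leaves 1 male control, the median was -0.84. Without those over 0.5, which leaves the same control, it was -0.85. No count is given for these fits. Pparg, Aqp7 and Dgat1 kept their call whichever single array was left out. Of 17 fatty acid oxidation genes and 14 thermogenic fat genes 0 passed, with medians of -0.22 and -0.06. Of 18 cholesterol synthesis genes 1 fell, Nsdhl at -0.73 ± 0.17 (adjusted p = 0.0209), against 2.69% of all genes, and the median was -0.14.

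The largest single falls were those of Col8a1, a short-chain collagen (-1.46 ± 0.36, adjusted p = 0.0302), and Nrk, a protein kinase gene (-1.44 ± 0.39, adjusted p = 0.0469). Nnat, neuronatin of endocrine and fat cells, was at -0.77, -0.26 and 0.18 at 1 against 1.44, 0.91 and 0.78 at 0 (-1.33 ± 0.26, adjusted p = 0.0103). The scaffold gene Dlg2 (-1.24 ± 0.21) and the laminin-binding integrin gene Itga7 (-1.24 ± 0.21) fell in arrays that lay far apart between groups. Abcd2, a peroxisomal transporter of fatty acids, fell by 1.23 ± 0.22, and Nat8l, which makes N-acetylaspartate, by 1.15 ± 0.22. Rgs7, a regulator of G protein signalling, was at -0.69, -0.67 and -0.68 at 1 and at 0.36, 0.43 and 0.70 at 0 (-1.18 ± 0.27). The arrays at 1 were nearly equal there. Grifin, a galectin-related protein gene (-1.31 ± 0.33), Gap43 of growing nerve fibres (-1.22 ± 0.30), Mrap, a partner of melanocortin receptors (-1.16 ± 0.28), and Gpt, alanine aminotransferase (-1.15 ± 0.24), also fell. Dlg2, Itga7, Abcd2 and Nat8l kept their call whichever array was left out. Col8a1, Nrk, Rgs7 and Mrap lost it whichever array was left out, and Nnat, Grifin, Gap43 and Gpt without some of the arrays. Nrk passed in 7 of 23 other settings.

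Among enzymes of steroid and retinoid handling, 1 of 29 rose (Stra6) and 3 fell, with a median of -0.16. Counts in this paragraph are read against the 1.83% of all genes that rose and the 2.69% that fell. Hsd11b1, which regenerates active glucocorticoid, was at -0.65, -0.35 and -0.58 at 1 against 0.30, 0.55 and 0.23 at 0 (-0.88 ± 0.15, adjusted p = 0.00535). Sts, steroid sulfatase, fell by 0.70 ± 0.13 (adjusted p = 0.00873) and Rbp4, the plasma carrier of retinol, by 0.77 ± 0.18 (adjusted p = 0.028). Rbp4 lost its call whichever array was left out, and Sts without replicate 1 at 0. Sult1e1, which inactivates estrogens by sulfation, gave -1.14 ± 0.33 and did not pass (adjusted p = 0.061). Of 27 immediate early genes 1 fell, the phosphatase gene Dusp1 at -0.92 ± 0.22 (adjusted p = 0.0291). Of 23 glucocorticoid and FOXO responsive genes 1 fell, the mTOR inhibitor gene Deptor at -0.83 ± 0.18 (adjusted p = 0.0177). Of 24 amino acid transporters the cationic transporter gene Slc7a3 rose by 1.13 ± 0.21 and the glutamine transporter gene Slc1a5 fell by 0.54 ± 0.13.

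Markers of other cell types are read against the 4.52% of all genes that passed. Of 19 endothelial markers 2 fell, Esam at -0.48 ± 0.13 and Eng, endoglin, at -0.36 ± 0.10, and 0 rose. Esam lost its call whichever array was left out, and Eng without any array but treated replicate 8. Of 16 Schwann cell and nerve markers S100b fell by 0.84 ± 0.17, a gene that fat cells also express. Of 5 erythrocyte markers the anion exchanger gene Slc4a1 fell by 0.73 ± 0.15. Mast cell and eosinophil (19), macrophage (18), T cell (16), B cell (15) and skeletal muscle (31) markers had 0 past the threshold, and their medians were -0.06, -0.09, 0.37, 0.43 and 0.12. Of 26 hepatocyte markers 1 rose (Mup5) and 2 fell (Vtn, vitronectin, at -0.77 ± 0.18, and Rgn, regucalcin, at -1.19 ± 0.30), while the albumin gene Alb gave -1.55 ± 0.68 (adjusted p = 0.221). That list had a median of -0.97, and its means in the controls spanned -0.13 to 2.30. Vtn and Rgn lost their call whichever array was left out.

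**Figure D3:**
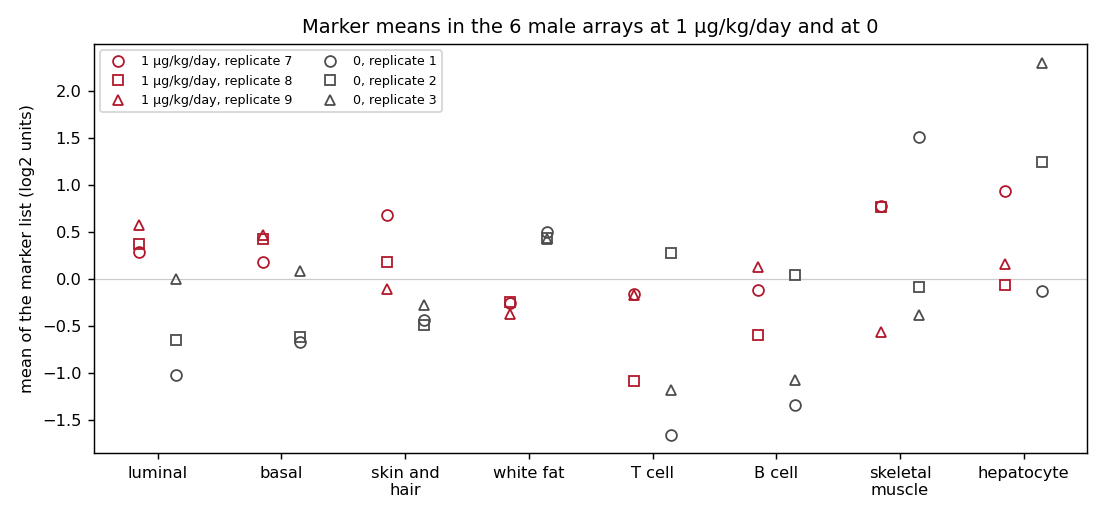
Mean of each marker list (log2 units, vertical axis) in the 3 male arrays at 1 µg/kg/day (red, left) and the 3 at 0 (grey, right), 1 symbol per array. White fat means do not overlap between the groups, at -0.37 to -0.24 and 0.43 to 0.50, while hepatocyte means of the controls range from -0.13 to 2.30.

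Whether the same dose changed female glands by another amount was tested as an interaction, in which the female change against 0 is subtracted from the male change. In limma 14 probe sets (0.0451%) were higher in males and 1 (0.00322%) lower, 15 in all (0.0483%), and 3059 (9.85%) had an unadjusted p under 0.05. They name 6 genes. Areg differed by 3.18 ± 0.44 in males and -0.67 ± 0.44 in females, an interaction of 3.86 ± 0.63 (adjusted p = 0.0307). The female arrays averaged -0.93 ± 0.71 at 1 and -0.25 ± 0.32 at 0 (SD, n = 3 each). Egr2 differed by 1.85 ± 0.22 in males and -0.21 ± 0.22 in females (interaction 2.06 ± 0.30, adjusted p = 0.0237). Pcdh10 differed by 2.02 ± 0.24 in males and 0.02 ± 0.24 in females (interaction 1.99 ± 0.33, adjusted p = 0.0307).

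Serpinb9, an intracellular inhibitor of granzyme B, was at 0.50, 0.73 and 0.76 in males at 1 against -1.19, -0.72 and -0.71 at 0. It rose by 1.53 ± 0.16 in males (adjusted p = 6.92e-05) and differed by 0.12 ± 0.16 in females (interaction 1.41 ± 0.23, adjusted p = 0.0307). Spon1, the matrix protein spondin 1, rose by 1.31 ± 0.14 in males (adjusted p = 6.92e-05) against 0.20 ± 0.14 in females (interaction 1.12 ± 0.20, adjusted p = 0.0445). Slc9a9, an endosomal sodium-proton exchanger, fell by 0.66 ± 0.11 in males and differed by 0.29 ± 0.11 in females (interaction -0.95 ± 0.16, adjusted p = 0.0307). Pgr (interaction 1.29 ± 0.46, adjusted p = 0.395), Prlr (1.75 ± 0.37, adjusted p = 0.128) and Wnt4 (1.42 ± 0.31, adjusted p = 0.14) did not pass. The luminal list had a median of 1.06 in males and -0.08 in females, with 0 of 22 interactions past the threshold. White fat genes had medians of -0.77 in males and -0.33 in females, with 0 of 25 past it.

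The count of 15 became 0 without any 1 of 8 of the 12 arrays in the contrast (male replicates 7, 8 and 9 at 1 and 1 at 0, female replicates 8 and 9 at 1 and 2 and 3 at 0). It was 7 without female replicate 7 at 1 and 51 without male replicate 3 at 0. For females alone, 0 probe sets passed at 1 against 0 in limma and 847 had an unadjusted p under 0.05 (2.73%).

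**Figure D4:**
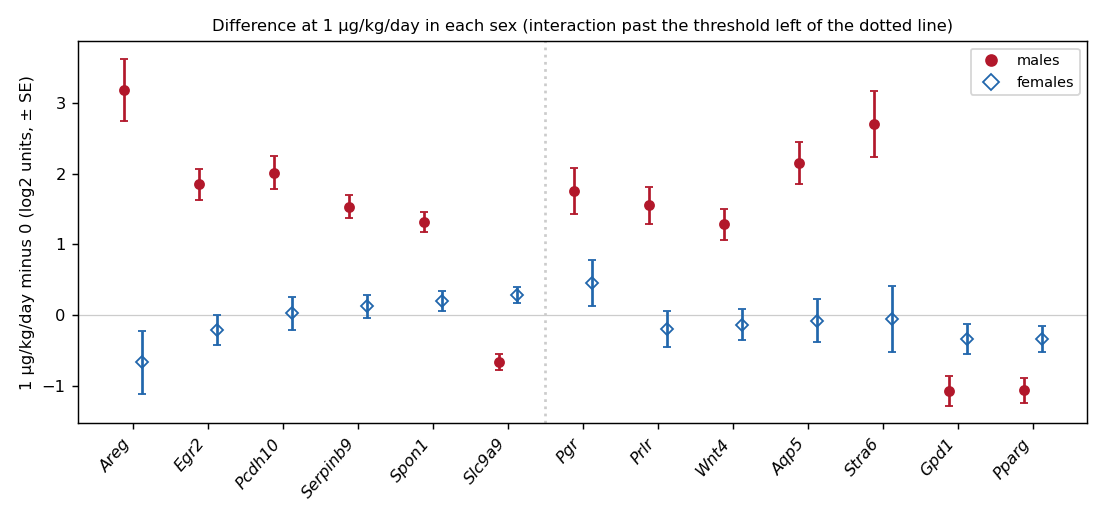
Difference between 1 µg/kg/day and 0 (log2 units ± SE, n = 3 arrays per group, vertical axis) in males (filled circles, left) and females (open diamonds, right). Genes left of the dotted line passed the interaction test. Areg is at 3.18 in males and -0.67 in females.

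Against the top dose, without the shared controls, 55 probe sets were higher at 10 than at 1 in males (0.177%) and 65 lower (0.209%), 120 in all (0.387%), beside 2920 (9.41%) with an unadjusted p under 0.05. Areg averaged -2.32 ± 0.48, -1.0 ± 0.54, 0.86 ± 0.28 and 3.03 ± 0.29 at 0, 0.1, 1 and 10 (SD, n = 3 each), and was higher at 10 than at 1 by 2.17 ± 0.44 (adjusted p = 0.0415). Greb1 averaged -0.73 ± 0.33, -0.80 ± 0.01, 0.53 ± 0.18 and 2.53 ± 0.24 over the same doses, and was higher at 10 than at 1 by 2.0 ± 0.37 (adjusted p = 0.0217). Of the 27 estrogen targets these 2 passed. Pcdh10 ran the other way, at -0.46 ± 0.60, 0.24 ± 0.21, 1.56 ± 0.09 and -0.02 ± 0.01, and was lower at 10 than at 1 by 1.58 (-1.58 ± 0.24, adjusted p = 0.00492). This call held in each of the other settings run for it, each array left out included. Ggh, which trims folates, rose at 1 against 0 by 0.63 ± 0.11 and was lower at 10 than at 1 (-0.65 ± 0.11, adjusted p = 0.0138).

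Other genes were higher at 10 than at 1 and did not pass between 1 and 0. The zinc finger gene Zbtb40 differed by 2.86 ± 0.19 between 10 and 1 (adjusted p = 1.43e-07), against 0.26 ± 0.19 between 1 and 0 (adjusted p = 0.507). Esrrb, an orphan nuclear receptor related to the estrogen receptors, differed by 1.54 ± 0.19 between 10 and 1 and by -0.28 ± 0.19 between 1 and 0. Extl1 (1.27 ± 0.14), Tmem35a (2.61 ± 0.34) and Spink8 (2.31 ± 0.31) were also higher at 10 than at 1, and none of the 3 passed at 1 against 0. Some fat cell genes were lower still at 10, with Gpd1 at -0.99 ± 0.21 (adjusted p = 0.0461), Adrb3 at -0.99 ± 0.20 (adjusted p = 0.0429) and the lipase cofactor gene Abhd5 at -1.11 ± 0.19 (adjusted p = 0.0137) between 10 and 1. Of 25 white fat genes 2 passed. The mast cell genes Hdc (-0.86, adjusted p = 0.0221), Ms4a2 (-0.94, adjusted p = 0.0372) and Cpa3 (-0.78, adjusted p = 0.0499) were lower at 10 than at 1 and did not pass at 1 against 0. Of 19 mast cell and eosinophil genes, 3 were lower at 10 than at 1 and 0 higher, against 39 and 32 of all 14217 genes. Of 22 luminal markers 0 passed between 10 and 1. Leaving out replicate 10, 11 or 12 of the top dose changed the count of 120 to 66, 36 or 34, and leaving out replicate 8 or 9 of the middle dose changed it to 27 or 19.

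Against 0.1, 4 probe sets were higher at 1 in males (0.0129%) and 0 lower, and 1200 (3.87%) had an unadjusted p under 0.05. The 1 that names a gene was 6330403K07Rikl, which averaged -1.08 ± 0.17, -0.81 ± 0.28, 0.59 ± 0.05 and 1.37 ± 0.21 at 0, 0.1, 1 and 10. It was higher at 1 than at 0.1 by 1.40 (adjusted p = 0.0158) and rose by 1.66 ± 0.20 at 1 against 0. Leaving out replicate 4 or 6 of the dose of 0.1, or replicate 9 of the dose of 1, brought the count of 4 to 0. Leaving out replicate 7 or 8 of the dose of 1 gave 2 or 1, and 6330403K07Rikl lost its call in all 5 cases. The comparisons of 0.1, 1 and 10 with 0 share their 3 control arrays. They called 0, 1127 and 5419 (17.5%) probe sets, beside 3703 (11.9%), 5735 and 9979 (32.1%) with an unadjusted p under 0.05, and the luminal medians were 0.74, 1.06 and 0.70 and the white fat medians -0.44, -0.77 and -1.34.

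**Figure D5:**
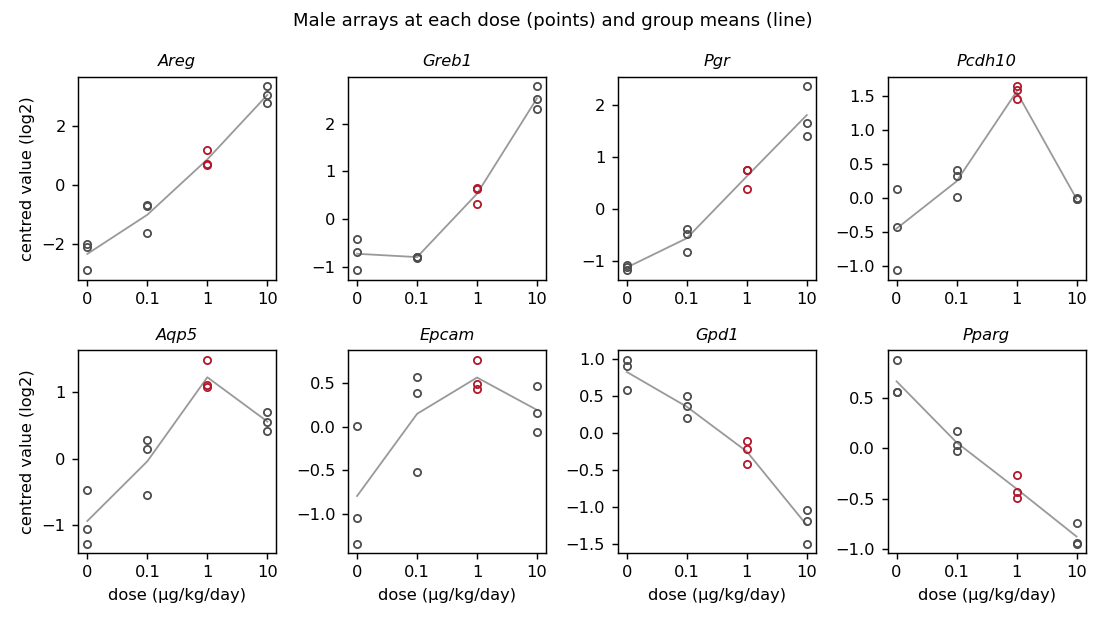
Centred values (log2 units, vertical axis) of 8 genes in the male arrays at 0, 0.1, 1 and 10 µg/kg/day (horizontal axis), 1 point per array, with a line through the group means and the arrays at 1 in red. Areg and Greb1 are highest at 10, and Pcdh10 is highest at 1 with a mean of 1.56.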

How the data were processed

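RNA of 24 Affymetrix arrays was compared, 3 per sex and dose, grouped by the labels. The deposited table holds the authors' signed log values, taken here as log2. Neither the log base, the summarization nor the normalization is given in the sources used here, and the submitters' processing notes list GCOS but give it no role. In 41.9% of probe sets the male values nearest 0 were equal and opposite within 2e-06, as centring on a median gives. The other probe sets did not show this, and the female arrays were not checked. Values were taken as centred within sex, so no level is kept, and folds assume base 2. Array medians lay between -0.018 and 0.013 and no further normalization was applied. Of 31099 probe sets 57 controls were left out. The platform annotation gave 1 gene for 20826 of the 31042 tested, several for 436 and none for 9780, and 20758 matched the RefSeq gene table by gene number.

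limma 3.58.1 under R 4.3.3 fitted 8 group means (lmFit, eBayes, 16 residual and 2.95 prior degrees of freedom). Every p printed comes from these fits, with Benjamini-Hochberg adjustment across the whole table. On simulated data for 1 against 0, over 31042 probe sets, the fit recovered 88% of 100 probe sets changed by 1 log2 unit and 96% of 100 changed by 2, with 10 false calls. The simulated noise was independent between probe sets, with the same SD in every group. Tissue differences shared by many probe sets and arrays of wider spread were not simulated, so these rates may not hold for the real arrays. The number of arrays limits the precision.

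Named genes are the 15 largest rises and 15 largest falls among called, non-overlapping probe sets with 1 gene, up to 4 called members of each list with the smallest p (2 where none passed), up to 10 genes in each direction of the other comparisons, and Esr1, Pgr, Prlr, Areg, Greb1 and Csn2. Other list members are named as examples chosen after their values were seen. For a list member with several probe sets, the one most variable across the 12 female arrays (by SD) was used. Members and lists were chosen with earlier results of these data known. Replicate numbers are shared between the sexes. Same-numbered arrays had deviations correlated from -0.48 to 0.59. The 5 of 12 over 0.1 were those of replicates 4, 5, 6, 10 and 11, at 0.44 to 0.59. The arrays were not treated as pairs, and these correlations do not settle whether they are. Alternatives changed the samples in the fit, normalization, filters, call rule, covariates and replicate block.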

Additional observations from a re-analysis of the deposited data

Results flagged for a closer look

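The response to 1 µg/kg/day differed between the sexes for 6 named genes, by the interaction test, the male change minus the female change. The interaction was 3.86 for Areg, 2.06 for Egr2, 1.99 for Pcdh10, 1.41 for Serpinb9, 1.12 for Spon1 and -0.95 for Slc9a9. Of 25 other settings, the interaction passed in 13 for Egr2 and Serpinb9, 12 for Areg and Slc9a9, 10 for Pcdh10 and 5 for Spon1, and its direction was kept in all 25. The female arrays differed in other tissue markers as well. Hepatocyte means ranged from -0.41 to 0.74 in females at 1 and from -0.11 to 2.10 in females at 0, and skeletal muscle means from -1.73 to 1.96 at 1 and from -3.03 to 0.05 at 0. Their part in the 6 interactions was tested only as far as the settings given here. Without the arrays whose hepatocyte mean was over 1, replicate 1 at 0 is the only male control left, so no count of interactions is given. That fit is among the 25 settings. With the beta-actin difference as a covariate the number of interactions past the threshold was 0.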

How the results depend on the processing

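The number of probe sets called at 1 against 0 in males, 1127, was 2375 with array weights, 1722 with male arrays only and 302 with a 2-fold change before adjustment. With the groups of the contrast only it was 885 (291 higher and 594 lower). Among alternatives chosen after seeing the data it was 22 with the luminal covariate, 268 with the keratinocyte covariate, 468 without the widest array of each sex and 209 without arrays with a hepatocyte mean over 0.5. It ranged from 165 to 1205 when single arrays were left out. In 9 settings more were higher than lower, in place of 475 and 652. Among them were the hepatocyte covariate (558 and 427), the hepatocyte, muscle and B cell covariates (768 and 705) and the luminal covariate (16 and 6). Others were quantile normalization (422 and 386) and a 2-fold change before adjustment (232 and 70). The balance also turned without replicate 3 at 0 (696 and 509) or replicate 7 at 1 (157 and 156). The rest were the fits without arrays with a hepatocyte mean over 1 or over 0.5. These leave 1 male control, so their counts are not given. For the interaction, 15 became 83 with array weights, 6 over probe sets with 1 gene, 285 with a 2-fold change before adjustment, 52 without arrays with a hepatocyte mean over 1, and 0 with the beta-actin covariate and with the groups of the contrast only, and ranged from 0 to 51 with single arrays left out. With the replicate block it was 22 as a random block and 0 as a fixed block, and with the random block 1166 probe sets passed at 1 against 0. For 10 against 1, 120 became 206 without the widest arrays, 845 with array weights, 14 with the beta-actin covariate, 215 with the groups of the contrast only, 69 with the hepatocyte covariate, 222 with hepatocyte, muscle and B cell covariates, 210 with male arrays only and 47 after quantile normalization, and ranged from 19 to 129. For 1 against 0.1, 4 became 40 with array weights, 2 with the beta-actin covariate, 0 with the groups of the contrast only, 8 over the probe sets with the larger SD, 23 with hepatocyte, muscle and B cell covariates, 13 with male arrays only, 1 over probe sets with 1 gene, 18 after quantile normalization, 7 without arrays with a hepatocyte mean over 1 and 30 with a 2-fold change before adjustment, and ranged from 0 to 4.

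Of the 80 genes of the naming rule past the threshold at 1 against 0, 27 kept the call without each single array. The sign turned for 11 genes of the naming rule that had not passed at 1 against 0: with the luminal covariate Cd14 (-0.17), Itgam (0.10) and Myl3 (2.18), with hepatocyte, muscle and B cell covariates Il7r (-0.15) and Cd28 (-0.088), and without replicate 1 at 0 or without the widest arrays Myl3 (0.17, the highest value with single arrays left out, against a lowest of -1.17). The others are genes named for 10 against 1. They are Tmem35a with the luminal covariate (-0.20), Slc7a7 without arrays with a hepatocyte mean over 0.5 (0.024) or over 1 (0.042), LOC102552398 with the luminal covariate (-1.16), with array weights (-0.28) or without the widest arrays (-0.34), Kcnip1 without the widest arrays (0.157), with array weights (0.12) or after quantile normalization (0.155), Fcgbp with the keratinocyte (-0.060), luminal (-0.17), hepatocyte (-0.017) or 3 tissue covariates (-0.17) or after quantile normalization (-0.10), and LOC102556108 with the hepatocyte covariate (-0.011) or without arrays with a hepatocyte mean over 0.5 (-0.0084). With single arrays left out they ranged from -0.34 to 0.60 for LOC102552398, from -0.14 to 0.157 for Kcnip1, from -0.15 to 0.12 for Fcgbp and from -0.020 to 0.073 for LOC102556108. The causes were not tested. With 3 arrays per group and centred values, signal over background could not be judged.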
